A study of Mus musculus with 32 samples.

Results

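Blood-forming stem and progenitor cells (HSPCs), from which all blood lineages are renewed, were compared 24 h after an injection of lipopolysaccharide (LPS) between mice that had carried a leukaemia and mice that had not. The comparison uses 8 of the 16 libraries of the series, 4 from experienced and 4 from naive mice, chosen by the group and treatment in their labels. In both groups lethally irradiated C57BL/6J recipients (CD45.2) had received 800000 marrow cells of healthy wild-type donors, double positive for CD45.1 and CD45.2, together with 200000 partner marrow cells (CD45.1). The partner cells of experienced mice were homozygous for hMLL-AF9 and for rtTA, so that doxycycline switches on the human MLL-AF9 fusion of acute myeloid leukaemia, and those of naive mice were hMLL-AF9-null and homozygous for rtTA only. Leukaemia was induced with doxycycline from 6 to 8 weeks after transplantation, for 5 weeks, and doxycycline was then withdrawn for 4 weeks. The design text does not say separately whether naive mice had the same doxycycline course, and the sources used here do not give the LPS dose, sex or age. The sequenced cells were the wild-type ones, sorted from marrow as CD45.1+/2+, lineage-negative, cKit+ and Sca1+, so they never carried the fusion. The other 8 libraries came from experienced and naive mice given phosphate-buffered saline (PBS) and served as the level at rest. The question is whether normal HSPCs that lived beside a leukaemia answer a later inflammatory challenge differently.

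LPS, a component of the outer membrane of Gram-negative bacteria, is sensed by Toll-like receptor 4 with Cd14 and Ly96. Its adaptor Myd88 leads to NF-kappaB and inflammatory cytokines, and its adaptor Trif (Ticam1) to interferon, whose receptors act through Stat2 and Irf9 on interferon-stimulated response elements. HSPCs sense LPS and the cytokines it releases, leave quiescence and turn towards myeloid output, and interferon-induced genes are among the largest responses of these cells to inflammation.

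Library sizes of the LPS libraries ran from 7718857 to 22264672 expected counts. Total counts, detected genes and the shares of mitochondrial, ribosomal protein and the 100 largest genes gave two-sided exact permutation p-values of 0.743 to 1 between the groups (1 after adjustment over the 5), and 0.0286 is the smallest that 4 against 4 allows. The defining sort genes were present: Kit, the stem cell factor receptor, had 404 to 720 CPM (counts scaled to a common library size) and Ly6a, which encodes Sca1, 63.3 to 157 CPM over the 8 libraries. Experienced replicate 4 stood apart from the other LPS libraries. It had the fewest counts and 14859 detected genes against 16860 to 18813 in the other 7, and 7.3% of its counts were mitochondrial against 1.91% to 4.26%. Its mean correlation with its own group was 0.915, the lowest of the 8. Naive replicate 2 followed with 0.936. Where leaving out experienced replicate 4 moved a gene's value or a list's median by over 1.5 times, both values are given in most cases. For other libraries this is given for some genes. Neutrophil markers summed to 30.8, 25.2, 22.5 and 19.3 CPM in naive replicates 1 to 4 and 25.5, 24.9, 21.5 and 22 CPM in experienced replicates 1 to 4 (6 of 10 tested), and macrophage markers to 22.7, 30.3, 22.8 and 38.3 CPM and 22.8, 20.1, 23.2 and 31.2 CPM (9 of 10 tested). The neutrophil genes Ly6g and Retnlg and the T cell gene Trac were at 0 in 7 of the 8 libraries. Other listed markers had counts in all 8, among them S100a8, Ngp, Cxcr2 and Itgam for neutrophils and Cd4, Lck, Klrb1c and Nkg7 for T and NK cells. The neutrophil sums rest mostly on Cxcr2 and Itgam, with 1221 and 1186 expected counts over the 8 libraries. The other tested neutrophil markers had 23 to 156.

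**Figure D1:**
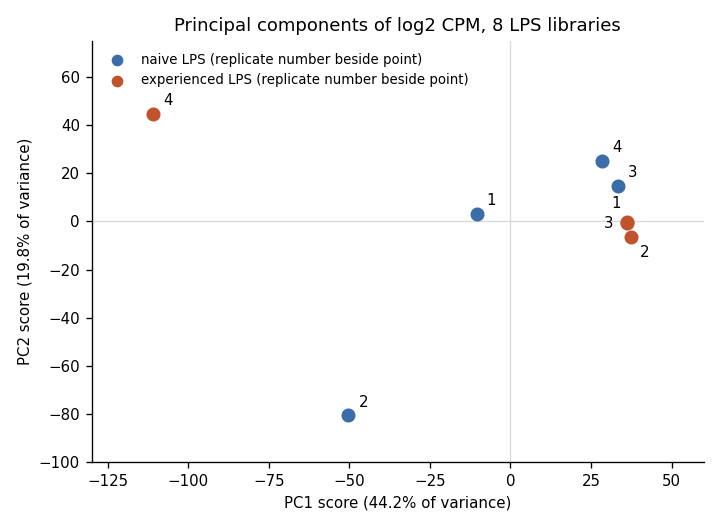
Scores of the 8 LPS libraries on the first principal components of log2 CPM, PC1 on the x axis (44.2% of the variance) and PC2 on the y axis (19.8%), with the replicate number beside each point. Experienced replicates 1 to 3 lie together at PC1 scores of 36.0 to 37.5, beside naive replicates 3 and 4, while experienced replicate 4 (-110.8) and naive replicate 2 (-50.3) lie far out.

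No gene passed adjustment between experienced and naive HSPCs after LPS. Of 15186 genes tested with edgeR's quasi-likelihood test, 0 (0%) had a Benjamini-Hochberg adjusted p under 0.05, and the lowest adjusted p was 0.9999. At an unadjusted p under 0.05 there were 166 genes higher (1.09%) and 325 lower (2.14%) in experienced cells. The 4 experienced libraries all lay above the 4 naive libraries for 92 genes (0.606%) and all below them for 154 (1.01%). For a gene without ties, 1 of the 70 arrangements of 4 against 4 gives each of these outcomes. DESeq2 called 2 genes and limma with library weights 2. The DESeq2 calls were 1500009L16Rik, with 0.614 to 1.81 CPM in naive and 2.45 to 3.58 CPM in experienced libraries, and an identifier without a symbol that had counts in 1 of the 8 libraries. The weighted limma calls were Zbp1, an interferon-induced sensor, and H2-T24, both lower in experienced cells. That fit gave weights of 0.16 to experienced replicate 4 and 0.25 to naive replicate 2. Experienced replicates 1 to 3 had weights of 2.73 to 3.24, and the other naive LPS libraries 0.535 to 0.739. These calls thus rest little on the 2 outlying libraries and are not used as support. For 10075 genes (66.3%) the 95% interval of the difference lay within 2-fold in either direction, and the median SE was 0.25.

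Without experienced replicate 4 more genes had low p-values, but again 0 passed adjustment. At an unadjusted p under 0.05 there were then 832 genes higher (5.35%) and 1165 lower (7.49%) of 15558 tested, and the lowest edgeR adjusted p was 0.276. Experienced replicates 1 to 3 lay above all naive libraries for 1049 genes (6.91%) and below all of them for 905 (5.96%). Leaving out the library farthest from its group narrows that group's spread, so values in this setting are described and not used as support. At rest, after PBS, 0 genes (0%) were called between the groups (lowest edgeR adjusted p 0.988), with 297 higher (1.96%) and 154 lower (1.01%) at an unadjusted p under 0.05. The interaction, which tests whether the difference after LPS departs from that at rest, called 0 (0%, lowest edgeR adjusted p 0.884), with 231 higher (1.52%) and 464 lower (3.06%). All genes below are therefore described by their values and by unadjusted p-values of this edgeR fit, which do not take account of the number of genes. Differences are log2, experienced minus naive, with the SE of the fit. Among the PBS libraries, experienced replicate 4 had 5.94% mitochondrial counts against 2.06% to 3.25% in the others. It also had the fewest counts (11021898) and the lowest mean correlation with its own group (0.947). The resting differences and interactions given below include it.

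Among genes that averaged a log2 CPM of 2 or more and whose 4 experienced libraries lay below all 4 naive libraries, the lowest unadjusted p-values belonged to Dpp4, Oas3, Ttc19, Polr3gl, Sec14l2, Zfp566, Parp6, Clasrp, Crem, Pde4a, Ccnyl1 and B3gat3. Dpp4 (ENSMUSG00000035000, chromosome 2, 62330073 to 62412231, minus strand) encodes CD26, a surface peptidase that trims chemokines and colony-stimulating factors. It read 31.8, 25.6, 22.2 and 19.2 CPM in naive replicates 1 to 4 and 16.6, 16.8, 13.4 and 17.6 CPM in experienced replicates 1 to 4. All 4 experienced values were below the lowest naive value, as the choice of these genes required. The difference was -0.62 ± 0.18 (95% interval -1.0 to -0.25, unadjusted p = 0.00276). At rest Dpp4 had 39.8, 36.8, 37.3 and 36 CPM in naive and 41.6, 27.4, 34.7 and 26.4 CPM in experienced libraries, where the groups overlap. Crem, a cyclic AMP-responsive transcription factor, gave 5.82, 6.07, 5.88 and 5.96 CPM in naive and 4.17, 3.39, 3.58 and 3.3 CPM in experienced replicates (-0.71 ± 0.23, unadjusted p = 0.00746). Pde4a, a phosphodiesterase that breaks down cyclic AMP, gave 91.9, 63.8, 73.3 and 82.1 and 57.7, 55.5, 60.5 and 61 CPM (-0.41 ± 0.14, unadjusted p = 0.00852). For both genes each naive value was above each experienced one, as the choice of these genes required. The largest difference among the 12 was -1.19 ± 0.38 for Sec14l2, a lipid-binding protein, with 8.38, 7.88, 12.2 and 5.7 CPM in naive and 4.57, 1.92, 4.67 and 3.71 CPM in experienced replicates. The other 7 besides Oas3 had differences from -0.65 (Ttc19, needed for mitochondrial complex III) to -0.36 (B3gat3, a glycosaminoglycan linker enzyme).

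Among genes that averaged a log2 CPM of 2 or more and whose experienced libraries lay above all naive libraries, the lowest unadjusted p-values belonged to Mboat1, Snrnp40, Hist2h2bb, Siah1b, Ociad2, Tmem273, Tnfsfm13, Rab32, Lpar5, Cdk5r1, Scp2 and Kcnk6. Mboat1 (ENSMUSG00000038732, chromosome 13, 30136489 to 30246717, plus strand), a lysophospholipid acyltransferase, read 10.2, 12.5, 12.2 and 10.1 CPM in naive and 23.1, 18.6, 17.6 and 13.5 CPM in experienced replicates after LPS. The difference was 0.70 ± 0.21 (95% interval 0.26 to 1.14, unadjusted p = 0.00369). Its resting levels were 17.5, 14, 18.8 and 20.5 CPM in naive and 17.4, 14.7, 16.1 and 9.86 CPM in experienced libraries, so 3 of the 4 experienced LPS values lay within the resting range and the naive LPS values lay below 7 of the 8 resting libraries. The interaction for Mboat1 was 0.98 ± 0.29 (unadjusted p = 0.00368). Hist2h2bb, a histone H2B gene, gave 78.2, 119.8, 102 and 95.2 CPM in naive and 180.3, 166, 137 and 181 CPM in experienced replicates (0.75 ± 0.23, unadjusted p = 0.00456). Snrnp40, a spliceosome subunit, gave 85.2, 90.7, 97 and 74.5 and 119.5, 104, 120.3 and 105 CPM, a difference of 0.37 ± 0.11. Siah1b, a ubiquitin ligase, gave 11.1, 12, 14 and 12.4 and 19.2, 18.9, 16.4 and 15.9 CPM (0.51 ± 0.16), with each experienced value above each naive one, as the choice required. The remaining 8 had differences from 0.31 (Scp2, a sterol carrier) to 0.81 (Tnfsfm13, a read-through of the cytokine genes Tnfsf12 and Tnfsf13, whose reads cannot be told apart from theirs with certainty), with Kcnk6, a potassium channel, at 0.77 and Rab32, a small GTPase, at 0.40.

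Interferon-induced genes had lower values in experienced cells in 33 of 34 listed genes, with a median log2 difference of -0.49 against -0.02 over all genes. None of the 34 passed adjustment with edgeR, 12 had an unadjusted p under 0.05 in the lower direction (2.14% of all genes did), and 0 did in the higher direction. The list was chosen with earlier results of these data known, and its genes, read in the same libraries, are not independent. With all 4 experienced libraries, 1 of the 34, Oas3, lay below all 4 naive libraries (1.01% of all genes did). For experienced replicates 1 to 3 alone it was 18 of the 34 (5.96% of all genes). Experienced replicate 4 was the highest experienced library for 26 of them, and without it the median was -0.63 with 30 genes lower and 4 higher. Of these 24 were then lower at an unadjusted p under 0.05, as were 7.49% of all genes. The list's summed level was 3667, 2215, 2781 and 3018 CPM in naive replicates 1 to 4 and 2203, 2485, 2215 and 2548 CPM in experienced replicates 1 to 4, so naive replicate 2 lay at the experienced level. At rest the same sum was 1220, 1191, 1135 and 1594 CPM in naive and 1310, 1570, 980 and 1303 CPM in experienced libraries, and the median difference was 0.02.

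Antiviral enzymes and sensors had the lowest p-values of this list. Oas3 (ENSMUSG00000032661, chromosome 5, 120753098 to 120777661, minus strand), which makes the oligoadenylate that activates RNase L, read 131, 85.2, 80.9 and 92.6 CPM in naive and 58.6, 54.7, 48.8 and 74 CPM in experienced replicates. Its groups did not overlap, as the choice of the 12 genes above required, and the difference was -0.73 ± 0.22 (95% interval -1.19 to -0.27, unadjusted p = 0.00373). Its paralogue Oas2 read 189, 94.8, 82.9 and 158 CPM and 52.1, 63.7, 53.7 and 109 CPM, where experienced replicate 4 lay within the naive range (-0.92 ± 0.33, unadjusted p = 0.0137, -1.21 ± 0.33 without that library). RNA sequencing reads of near-identical families such as Oas and Ifit are divided by estimate, so values of single members are uncertain. Zbp1 (ENSMUSG00000027514, chromosome 2, 173206612 to 173218923, minus strand), a sensor of Z-form nucleic acid that can start necroptosis, read 72.5, 16.3, 46.9 and 48.1 CPM in naive and 18.9, 20.6, 18.9 and 38.1 CPM in experienced replicates. Experienced replicates 1 to 3 lay close together, naive replicate 2 was lower than any of them, and the other naive values were at least 46.9 CPM. Its difference was -0.94 ± 0.35 (unadjusted p = 0.0148) and -1.24 ± 0.35 without experienced replicate 4. H2-T24, a non-classical MHC class I gene chosen after its values were seen, read 38.4, 37.3, 25.5 and 31.7 CPM in naive and 15.7, 16.9, 13.9 and 34.4 CPM in experienced replicates. Again replicates 1 to 3 of the experienced group lay below all naive values and replicate 4 among them (-0.73 ± 0.25, -1.09 ± 0.19 without it). Ifit1, which blocks translation of viral RNA, read 39.2, 23.2, 25.9 and 25.4 CPM and 13.2, 14.5, 10.8 and 27.5 CPM (-0.80 ± 0.31, unadjusted p = 0.0211), with the same pattern.

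The factors that carry the interferon signal had smaller differences. Stat2 read 109, 61.3, 72.7 and 67.6 CPM in naive and 42.1, 50.1, 41.9 and 85 CPM in experienced replicates (-0.51 ± 0.22, unadjusted p = 0.0308, -0.79 ± 0.17 without experienced replicate 4 and -0.30 without naive replicate 1). Irf9, its partner, read 138, 86.9, 111 and 126 CPM and 82.3, 86.6, 78.6 and 102 CPM (-0.41 ± 0.16, unadjusted p = 0.0213). In both the experienced replicates 1 to 3 were below every naive value and replicate 4 was within the naive range. Irf7, the factor that amplifies interferon production, read 141, 54, 124 and 118 CPM and 71.5, 69.3, 59.3 and 82.6 CPM, with naive replicate 2 below all experienced values (-0.63 ± 0.29, unadjusted p = 0.0458). Cmpk2, a mitochondrial nucleotide kinase, read 62.2, 30.6, 57 and 43.1 CPM and 32.3, 28.4, 33.4 and 37.7 CPM (-0.56 ± 0.22), and its interaction was -1.0 ± 0.31 (unadjusted p = 0.00491). The 1 gene of the list without a lower value, Ifitm3, a membrane protein that blocks viral entry, read 491, 317, 465 and 477 CPM and 445, 492, 427 and 418 CPM (0.03 ± 0.23, 95% interval -0.46 to 0.51). Isg15, a ubiquitin-like modifier, read 15.5, 10.8, 28 and 31.7 CPM and 16.2, 19.3, 14.7 and 11.6 CPM, near the median of the list (-0.48 ± 0.37, -0.24 ± 0.40 without naive replicate 4), and the groups overlapped for both genes. Per length, Ifitm1 and Ifitm3 were the highest of the list, with mean TPM (a level per transcript length) of 1377 and 939 in naive and 1294 and 975 in experienced libraries. TPM assume reads along whole transcripts, which was not tested, and sum to a fixed total in each library, so groups are compared on CPM, which were scaled between libraries.

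**Figure D2:**
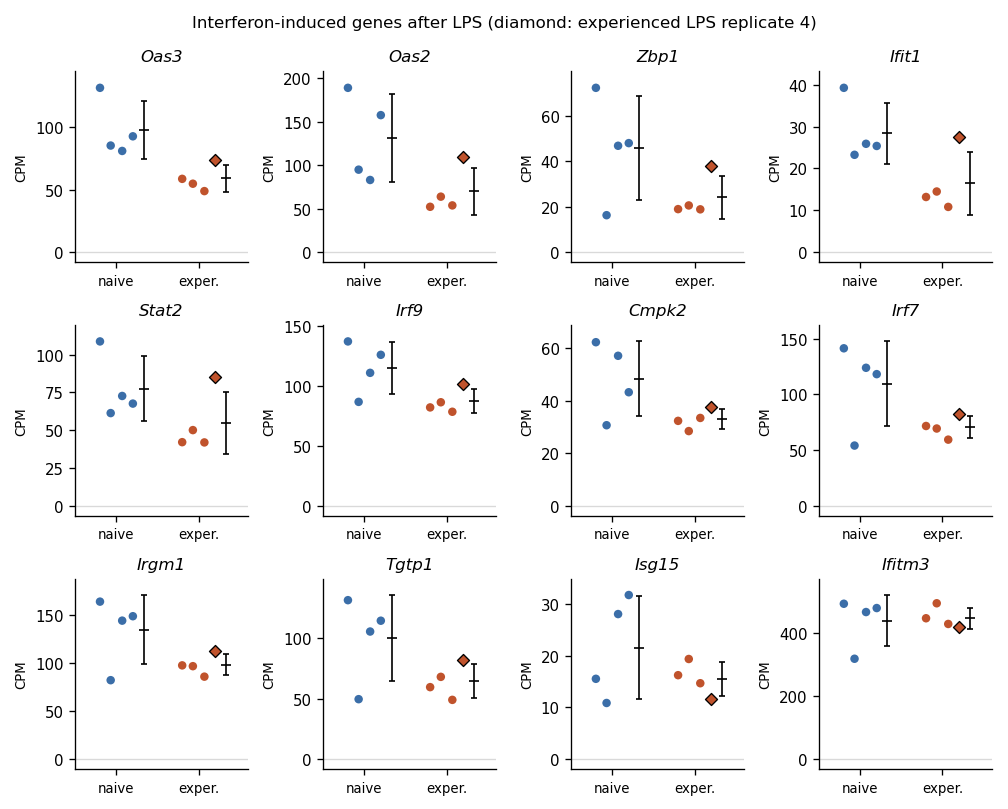
CPM (y axis) of 12 interferon-related genes in naive and experienced libraries after LPS (x axis), 1 point per library in the order of the replicate numbers, with the group mean ± SD as a bar and experienced replicate 4 as a diamond. For Oas2, Ifit1, Stat2 and Irf9 experienced replicates 1 to 3 lie below the naive points and replicate 4 among them, and for Isg15 and Ifitm3 the groups overlap.

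Promoter windows were searched for the element through which Stat2 and Irf9 act. The core GAAANNGAA of the interferon-stimulated response element (both strands, overlapping matches allowed) was present in 16 of the 27 RefSeq windows (59.3%) found for 24 of the 34 genes, against 8.56% of all 32851 windows of 300 bases, running from 250 before to 50 after the start (RefSeq, GRCm38.p6). The NF-kappaB letters GGGNNTTTC were in 0 of the 27 windows and in 4.36% of all windows. AP-1 letters (TGANTCA) were in 25.9% of the 27 windows against 7.81% of all, GATA letters (AGATAA) in 14.8% against 11.2%, heat shock letters (GAANNTTC) in 11.1% against 7.86%, E-box letters (CACGTG) in 0% against 7.15% and cyclic AMP response letters (TGACGTCA) in 0% against 1.79%. The list was made of interferon-induced genes, so these shares describe the list and do not bear on the difference between experienced and naive cells. Irf7, Irf9 and Cmpk2, whose values were also lower, had 0 core matches in the 250 bases before the start. The shares use the full windows, and some of the 16 match only in, or reaching into, the 50 bases after the start. The 250 bases before the start are shown for 3 genes with lower values in experienced replicates 1 to 3, with core matches in capitals: Oas3 (chr5:120777660-120777909, minus strand) with overlapping matches whose first bases are at -75 and -69, Ifit1 (chr19:34640639-34640888, plus strand) with matches to the reverse complement at -109, -103 and -84, and Stat2 (chr10:128270248-128270497, plus strand) with 1 at -221.
Oas3: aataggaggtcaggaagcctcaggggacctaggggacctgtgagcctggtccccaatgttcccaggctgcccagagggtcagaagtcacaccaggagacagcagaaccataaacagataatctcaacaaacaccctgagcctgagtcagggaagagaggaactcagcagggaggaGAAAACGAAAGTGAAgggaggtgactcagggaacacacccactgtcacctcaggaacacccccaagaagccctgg
Ifit1: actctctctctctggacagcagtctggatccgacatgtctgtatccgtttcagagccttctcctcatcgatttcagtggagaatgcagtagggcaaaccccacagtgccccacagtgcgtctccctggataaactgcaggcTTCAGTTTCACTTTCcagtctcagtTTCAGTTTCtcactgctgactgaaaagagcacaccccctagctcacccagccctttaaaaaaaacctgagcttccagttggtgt
Stat2: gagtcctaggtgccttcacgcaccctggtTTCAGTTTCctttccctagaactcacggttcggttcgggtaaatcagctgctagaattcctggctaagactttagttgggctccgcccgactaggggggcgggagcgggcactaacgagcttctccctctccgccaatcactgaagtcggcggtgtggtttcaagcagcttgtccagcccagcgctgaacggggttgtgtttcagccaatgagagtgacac
A match describes the letters and is not evidence of binding in these cells.

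Other branches of the interferon response differed in how far they followed. The interferon-gamma-induced GTPases, which attack the vacuoles of intracellular pathogens, were lower in 14 of 15 genes with a median of -0.46, 2 at an unadjusted p under 0.05 (Irgm1 and Tgtp1; 2.14% of all genes were lower at that level) and none called by edgeR. Irgm1 read 164, 82.4, 144 and 149 CPM in naive and 97.8, 97, 86.1 and 113 CPM in experienced replicates (-0.46 ± 0.18, unadjusted p = 0.0215). Tgtp1 read 131, 49.5, 105 and 114 CPM and 59.4, 67.8, 48.9 and 81.9 CPM (-0.64 ± 0.29, unadjusted p = 0.0409). In both, naive replicate 2 had the lowest or nearly the lowest value and the other naive libraries lay above all experienced ones. MHC class I and immunoproteasome genes, which present intracellular peptides, had a median of 0.04 with 8 of 13 higher (0.15 without experienced replicate 4), and the 95% interval of each of the 13 lay within 2-fold. B2m, the light chain of MHC class I and a member of this list, read 3287, 3300, 1420 and 1520 CPM in naive and 1324, 1387, 1317 and 4762 CPM in experienced replicates, high in naive replicates 1 and 2 and experienced replicate 4 (-0.12 ± 0.42, -0.81 ± 0.32 without the last). MHC class II genes were lower in 9 of 10 (median -0.24, and -0.71 at rest). H2-Ab1, its beta chain, read 89.9, 68.6, 75.2 and 91.5 CPM in naive and 69.8, 57.9, 57.9 and 53.2 CPM in experienced replicates after LPS (-0.44 ± 0.17, unadjusted p = 0.017) and 103, 86.6, 92 and 61.3 CPM and 44.6, 48.5, 65.3 and 48.1 CPM at rest (-0.73 ± 0.17, unadjusted p = 0.00044, edgeR adjusted p = 0.988). Cd74, the invariant chain, gave -0.34 ± 0.26 after LPS (-0.19 ± 0.27 without naive replicate 4) and -0.76 ± 0.26 at rest.

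With all libraries, the lists of LPS sensing, NF-kappaB and TNF, and IL-6, G-CSF and Stat3 genes held 0 genes at an unadjusted p under 0.05 (1.09% of all genes were higher and 2.14% lower at that level). LPS sensing genes had a median of 0.07 over 18 genes (0.03 without experienced replicate 4) and 16 of the intervals lay within 2-fold. Tlr4 itself read 8.59, 17.7, 8.94 and 11.7 CPM in naive and 10.3, 14.7, 9.52 and 4.95 CPM in experienced replicates (-0.23 ± 0.28, -0.01 ± 0.25 without replicate 4). Myd88 read 42.5, 37.1, 59.3 and 47.8 CPM and 61.9, 62.8, 63 and 33.7 CPM (0.25 ± 0.19, 0.42 ± 0.15 without replicate 4). The Myd88 difference was 0.15 ± 0.19 without naive replicate 2 and 0.39 ± 0.20 without naive replicate 3. Cd14, the LPS co-receptor, read 1.15, 1.94, 2.31 and 1.4 CPM in naive and 3.91, 3.96, 5.14 and 0 CPM in experienced replicates. Replicates 1 to 3 were above all naive values and replicate 4 had no count, so the difference was 0.96 ± 0.68 (unadjusted p = 0.174) and 1.35 ± 0.40 without replicate 4. NF-kappaB and TNF response genes were higher in 17 of 25 with a median of 0.11 (0.16 without experienced replicate 4), and 14 of their intervals lay within 2-fold. Tnf, the cytokine, read 5.29, 2.58, 5.32 and 4.38 CPM and 8.23, 8.7, 8.11 and 2.89 CPM, again higher in experienced replicates 1 to 3 and low in replicate 4 (0.66 ± 0.36, 0.91 ± 0.32 without it). Nfkbia, the feedback inhibitor of NF-kappaB, gave -0.02 ± 0.24 (95% interval -0.52 to 0.48, 0.16 ± 0.22 without replicate 4). The chemokine Cxcl10 gave -0.38 ± 0.35, which was -0.06 without naive replicate 1, and Ccl5 gave 0.00 ± 0.48 (0.23 ± 0.48 without experienced replicate 4). Genes of the IL-6, G-CSF and Stat3 response were higher in 13 of 13 (median 0.18, 0.50 without experienced replicate 4), and 4 of the 13 intervals lay within 2-fold. Csf3r, the G-CSF receptor, read 73.3, 73.5, 81.8 and 104 CPM in naive and 120.1, 123, 116 and 48.3 CPM in experienced replicates (0.30 ± 0.24, 0.53 ± 0.17 without replicate 4). Cytokine receptors had a median of 0.07 over 19 genes (0.14 without experienced replicate 4).

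Genes of granulocyte-monocyte priming had higher values in experienced cells in 15 of 17 (median 0.39, 0.59 without experienced replicate 4). Of the 17, 1 was higher at an unadjusted p under 0.05 (1.09% of all genes were) and 0 were called by edgeR. Experienced replicates 1 to 3 lay above all naive libraries for 9 of them (6.91% of all genes did), and replicate 4 was the lowest experienced library for 16. With replicate 4 included, 0 of the 17 lay above all naive libraries (0.606% of all genes did). Irf8 (ENSMUSG00000041515, chromosome 8, 120736358 to 120756694, plus strand), the factor that directs monocyte and dendritic cell fate, read 9.59, 15.1, 15.2 and 12.3 CPM in naive and 31.1, 32.7, 28.4 and 9.9 CPM in experienced replicates. Replicates 1 to 3 were well above the highest naive value and replicate 4 was within the naive range, and the difference was 0.98 ± 0.35 (95% interval 0.23 to 1.73, unadjusted p = 0.0133). Without replicate 4 it was 1.24 ± 0.30. Prtn3, proteinase 3 of neutrophil granules, read 158, 160.4, 377 and 243 CPM and 488, 549, 582 and 65.4 CPM (0.84 ± 0.45, 1.20 ± 0.27 without replicate 4), with replicate 4 the lowest of all 8 libraries. Cebpa, the granulocyte-monocyte master factor, read 69.1, 36.4, 111 and 65.8 CPM and 131, 123, 135 and 27.9 CPM (0.56 ± 0.40, 0.87 ± 0.31 without replicate 4). For Cebpa it was 0.35 ± 0.41 without naive replicate 2 and 0.87 ± 0.42 without naive replicate 3. Mpo, myeloperoxidase, overlapped between the groups at 1478, 2327, 1766 and 758 CPM and 2193, 2367, 2549 and 1231 CPM (0.40 ± 0.40). Its difference was 0.17 ± 0.39 without naive replicate 4 and 0.64 ± 0.42 without naive replicate 2.

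Lymphoid and megakaryocytic priming genes differed mainly in single members. Over 19 lymphoid priming genes the median was 0.08 (0.05 without experienced replicate 4), with 1 higher at an unadjusted p under 0.05 (1.09% of all genes). That gene was Dntt, terminal deoxynucleotidyl transferase, a mark of lymphoid-primed progenitors, with 3.04, 5.81, 3.9 and 6.23 CPM in naive and 10.3, 9.27, 13.7 and 5.5 CPM in experienced replicates (1.09 ± 0.41, unadjusted p = 0.0171). Flt3, the receptor of lymphoid-primed multipotent progenitors, read 32.6, 41.6, 43.4 and 43.8 CPM and 71.7, 77.5, 67.5 and 25.3 CPM (0.59 ± 0.30, unadjusted p = 0.0702, 0.85 ± 0.25 without replicate 4). For both genes experienced replicates 1 to 3 were above all naive values and replicate 4 was not. Megakaryocyte and platelet genes had a median of 0.18 with 15 of 19 higher and 2 at an unadjusted p under 0.05, namely Pf4 and Vwf (1.09% of all genes), and the median was 0.33 without experienced replicate 4. Pf4, platelet factor 4, read 5.45, 19.2, 12.8 and 18 CPM in naive and 39.99, 37.4, 22.8 and 13.8 CPM in experienced replicates (1.05 ± 0.39, unadjusted p = 0.0146). At rest it read 23.6, 24.3, 16.3 and 16.6 CPM and 7.11, 13.5, 19.5 and 13.8 CPM, and its interaction was 1.64 ± 0.54 (unadjusted p = 0.00788). Vwf, which marks platelet-biased stem cells, read 40.7, 61.1, 50.7 and 49.6 CPM and 87.3, 70.3, 55.8 and 64.5 CPM (0.46 ± 0.21, unadjusted p = 0.0399). Basophil and mast cell genes had lower values in 14 of 16 (median -0.37), among them Fcer1a, the IgE receptor alpha chain, at 27.6, 19.5, 32 and 44.2 CPM and 24.9, 23.7, 22.9 and 12.5 CPM (-0.55 ± 0.29, -0.33 without naive replicate 4). In sorted bulk cells a larger number of primed cells and more RNA per cell cannot be told apart.

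**Figure D3:**
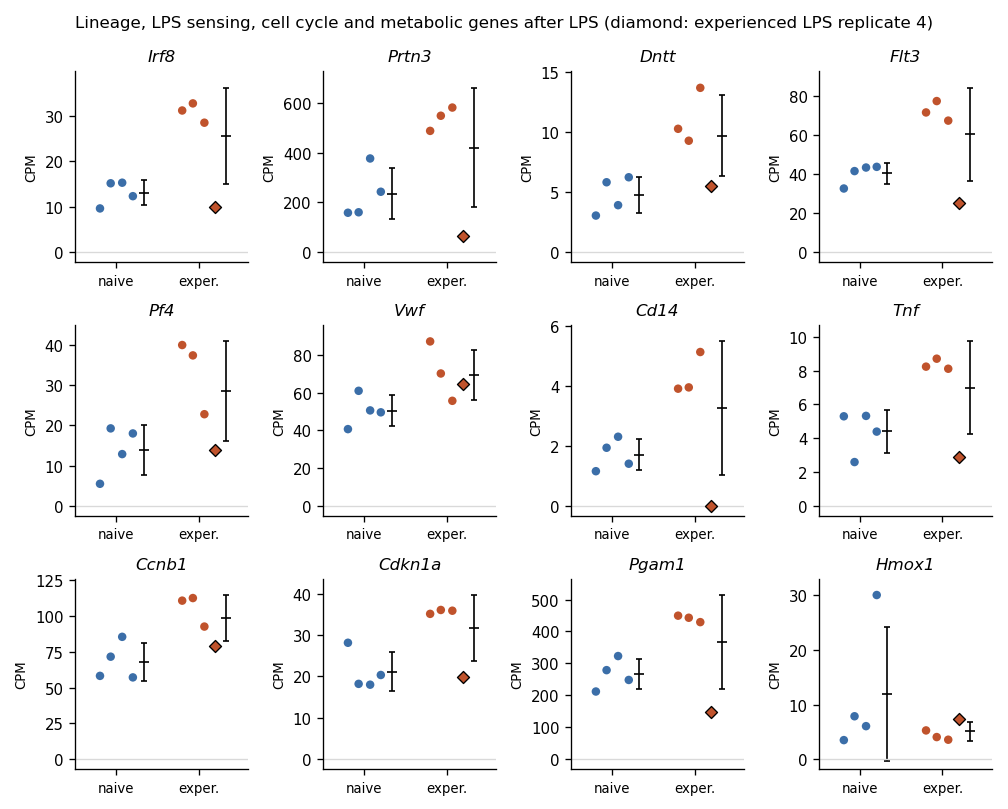
CPM (y axis) of 12 genes in naive and experienced libraries after LPS (x axis), 1 point per library in replicate order, with the group mean ± SD as a bar and experienced replicate 4 as a diamond. For Irf8, Prtn3, Dntt, Flt3, Pf4, Cd14, Tnf, Ccnb1, Cdkn1a and Pgam1 experienced replicates 1 to 3 lie above the naive points, and the diamond lies among or below the naive points for these genes.

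Erythroid genes had lower values in experienced cells after LPS and higher values at rest. After LPS 16 of 19 tested erythroid genes had lower values in experienced cells (median -0.57), 0 with an unadjusted p under 0.05. At rest the median was 1.18 and 10 of the 19 were higher at an unadjusted p under 0.05 (1.96% of all genes), while the interaction had a median of -1.65 with 10 lower at that level (3.06% of all genes), none called by edgeR. The summed erythroid level was 2810, 1460, 3403 and 2048 CPM in naive and 1730, 1205, 1685 and 2839 CPM in experienced LPS replicates, and 648, 738, 712 and 571 CPM and 467, 533, 1454 and 3810 CPM at rest. The resting difference thus came with experienced PBS replicates 3 and 4, and after LPS the groups overlap. Experienced PBS replicate 4 is the PBS library with 5.94% mitochondrial counts. Klf1, the erythroid master factor, read 69.99, 28, 90.9 and 48.6 CPM in naive and 32.8, 23.2, 40.4 and 49.4 CPM in experienced replicates after LPS (-0.71 ± 0.70, -0.43 ± 0.76 without naive replicate 3). Car1, carbonic anhydrase 1, read 656, 245, 708 and 357 CPM and 235, 132, 247 and 714 CPM (-0.57 ± 0.88, -1.26 ± 0.94 without experienced replicate 4). Its difference was -0.34 ± 0.96 without naive replicate 3 and -0.31 ± 0.95 without experienced replicate 2. For Car1 experienced replicate 4 was above all naive values and the other 3 were below all or all but the lowest of them. Gata1 read 137, 62.9, 112 and 84.2 CPM and 74, 63.2, 74.2 and 75.5 CPM (-0.47 ± 0.46, -0.27 ± 0.50 without naive replicate 1), with an interaction of -1.65 ± 0.66 (unadjusted p = 0.0229).

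**Figure D4:**
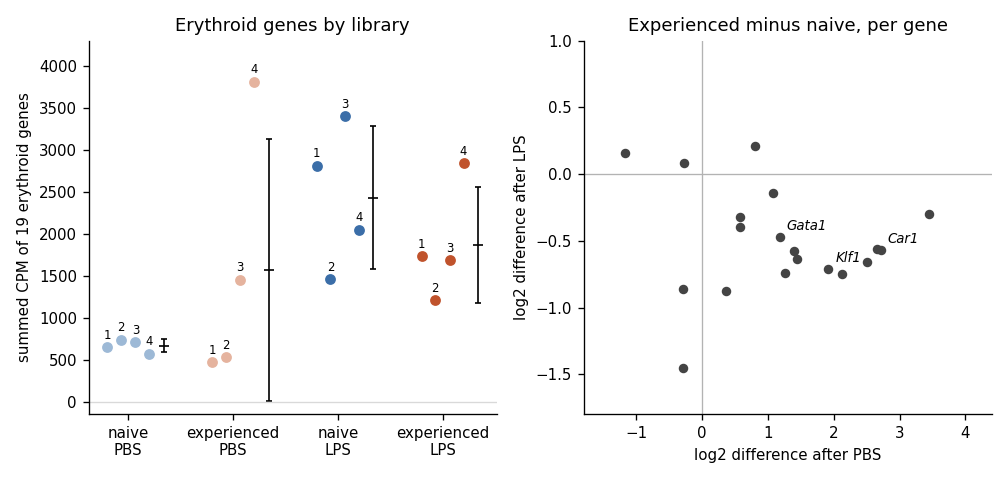
Left, summed CPM of 19 erythroid genes (y axis) in each library of the 4 groups (x axis), with the replicate number above each point and the group mean ± SD as a bar. Right, the log2 difference of each of the 19 genes between experienced and naive cells after PBS (x axis) and after LPS (y axis). Experienced PBS replicates 3 and 4 lie above the other PBS libraries, and 16 of 19 genes lie below 0 after LPS.

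Cell cycle genes had small positive differences. G2/M and mitosis genes were higher in 20 of 25 (median 0.17) with 4 at an unadjusted p under 0.05 (1.09% of all genes), and the 95% interval of 24 lay within 2-fold. Ccnb1, cyclin B1, read 58.1, 71.5, 85.4 and 57.1 CPM in naive and 111, 112, 92.5 and 78.9 CPM in experienced replicates (0.54 ± 0.19, unadjusted p = 0.0138). The mitotic kinases Plk1, Aurkb and Aurka gave 0.47 ± 0.22, 0.42 ± 0.20 and 0.34 ± 0.16. Plk1 also differed at rest by 0.50 ± 0.22 (unadjusted p = 0.0384), and the G2/M median at rest was 0.31. Mki67, a proliferation marker, read 1025, 1707, 808 and 618 CPM and 849.8, 852, 827 and 1190 CPM (-0.16 ± 0.28, -0.29 ± 0.29 without replicate 4), with the highest values in naive replicate 2 and experienced replicate 4. G1/S and DNA replication genes had a median of 0.08 with 20 of 26 higher (0.16 without experienced replicate 4). Cdkn1a, the cell cycle inhibitor p21, read 28.1, 18.2, 18 and 20.4 CPM in naive and 35.1, 36, 35.9 and 19.8 CPM in experienced replicates (0.58 ± 0.27, unadjusted p = 0.0422), while the 19 p53 targets, of which it is a member, had a median of -0.05. Quiescence genes had a median of -0.07 and ran from -0.45 to 1.02. Of the 18, 1 was higher at an unadjusted p under 0.05 (1.09% of all genes), again Cdkn1a.

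Metabolic genes followed the split between experienced replicate 4 and the rest. Glycolysis and hypoxia genes were higher in 16 of 19 (median 0.20), 0 at an unadjusted p under 0.05 with all libraries and 9 without experienced replicate 4 (5.35% of all genes). Pgam1, phosphoglycerate mutase, read 212, 279, 323 and 248 CPM in naive and 449.5, 443, 429 and 148 CPM in experienced replicates (0.47 ± 0.25, 0.73 ± 0.15 without replicate 4). Gapdh read 1125, 1170, 1468 and 1173 CPM and 1770, 1702, 1759 and 942 CPM (0.32 ± 0.18, 0.50 ± 0.13 without replicate 4), and Ldha, lactate dehydrogenase, 474, 445, 794 and 530.4 CPM and 869, 827, 846 and 352 CPM (0.37 ± 0.24, 0.60 ± 0.18 without replicate 4). In these 3 genes experienced replicates 1 to 3 were above all naive values and replicate 4 below all of them. Nuclear genes of oxidative phosphorylation were higher in 25 of 26 (median 0.12, 0.32 without replicate 4), and 24 of their intervals lay within 2-fold. The 13 mitochondrially encoded genes had a median of 0.04, which was -0.99 without replicate 4, so that library sets their value. Atf4 stress response genes, which supply amino acids under stress, had a median of 0.19 with 12 of 15 higher (0.29 without replicate 4).

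Stem cell identity genes had differences from -0.50 to 0.63. Of the 26, 1 was higher at an unadjusted p under 0.05 (1.09% of all genes), Vwf, given above with the platelet genes. The 26 stem cell genes had a median of 0.04 (-0.18 without experienced replicate 4), and 21 of their 95% intervals lay within 2-fold. Mecom, a factor of long-term stem cells, read 15.6, 27.5, 15.9 and 21.6 CPM in naive and 21.6, 22.8, 19.1 and 17.3 CPM in experienced replicates (0.02 ± 0.20, 95% interval -0.40 to 0.44). Hlf gave 0.07 ± 0.25, Meis1 0.01 ± 0.20 and Procr, which encodes the stem cell marker EPCR, -0.17 ± 0.34 (95% interval -0.89 to 0.54). Without experienced replicate 4 these were -0.18 ± 0.24, -0.16 ± 0.19 and -0.46 ± 0.33. The sort genes Kit and Ly6a gave -0.18 ± 0.16 (95% interval -0.52 to 0.15) and -0.15 ± 0.33 (-0.84 to 0.55), and -0.27 ± 0.16 and -0.03 ± 0.35 without that library. Genes of the MLL-AF9 programme had a median of -0.07 over 23 genes (-0.19 without experienced replicate 4), and Hoxa9, a central target of the fusion, read 50.4, 62.9, 35.7 and 44.3 CPM in naive and 40.6, 39.2, 39.4 and 47 CPM in experienced replicates (-0.22 ± 0.15). The ranges of the groups overlapped for each of these genes.

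**Figure D5:**
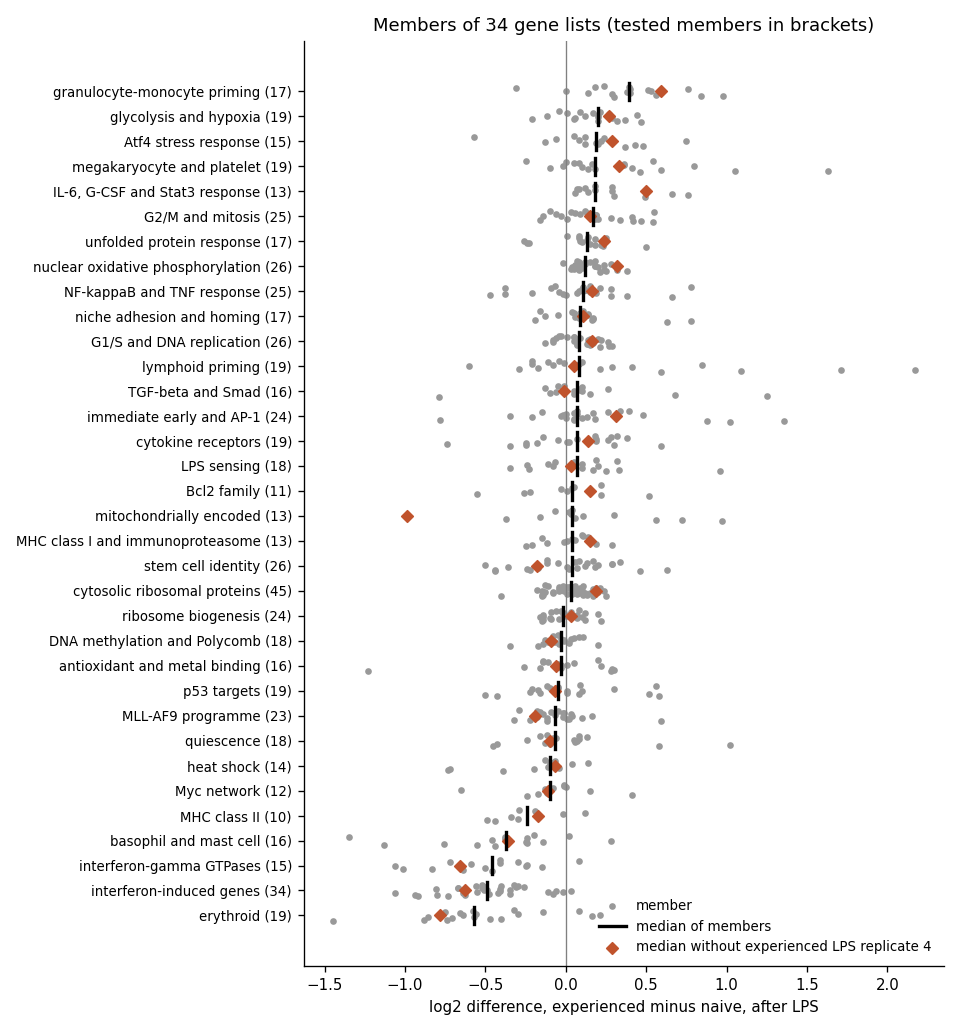
Log2 difference between experienced and naive cells after LPS (x axis) for the tested members of 34 gene lists (y axis, number of members in brackets), with the median as a black bar and the median without experienced replicate 4 as a diamond. Interferon-induced genes, interferon-gamma GTPases, basophil and mast cell and erythroid genes have the lowest medians, and granulocyte-monocyte priming the highest.

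With all libraries the remaining lists had medians from -0.10 to 0.13, and some moved without experienced replicate 4. The medians were -0.10 for heat shock genes (12 of 14 lower), -0.10 for the Myc network (10 of 12 lower), -0.02 for ribosome biogenesis and 0.03 for cytosolic ribosomal proteins (0.19 without replicate 4). They were 0.13 for the unfolded protein response (14 of 17 higher, 0.24 without replicate 4), 0.09 for niche adhesion and homing, 0.07 for TGF-beta and Smad genes (-0.01 without it), -0.03 for DNA methylation and Polycomb regulators (-0.09 without it) and 0.04 for the Bcl2 family (0.15 without it). Of the 24 immediate early and AP-1 genes (median 0.07, 16 higher) 1 was higher at an unadjusted p under 0.05 (1.09% of all genes), and without replicate 4 the median was 0.31 with 20 higher. That gene was Atf3, a stress-induced factor, at 12, 5.17, 2.82 and 4.21 CPM in naive and 29.7, 16.8, 13.8 and 1.51 CPM in experienced replicates (1.36 ± 0.64, unadjusted p = 0.0491, 0.83 without experienced replicate 1). Klf2, which keeps blood cells quiescent, read 23.9, 21.9, 13.6 and 38.2 CPM and 81, 45.5, 51.2 and 18.6 CPM (1.02 ± 0.54, 0.67 without experienced replicate 1), with experienced replicates 1 to 3 above all naive values. Of the 16 antioxidant and metal binding genes (median -0.03) 1 was lower at an unadjusted p under 0.05 (2.14% of all genes), Hmox1, the haem-degrading enzyme, at 3.51, 7.88, 6.07 and 30.1 CPM and 5.28, 4.07, 3.58 and 7.42 CPM (-1.23 ± 0.50, unadjusted p = 0.0264). Naive replicate 4 was far above the other libraries, and without it the difference was -0.19 ± 0.35. At rest Hmox1 gave -1.53 ± 0.51 (unadjusted p = 0.00825).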

How the data were processed

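RNA of sorted marrow HSPCs was measured in 4 groups of 4 biological replicates, 16 libraries in all. The labels list 32 samples, 2 technical replicates for each biological replicate, with 1 table per biological replicate, which was counted as 1 sample. Sample titles gave groups and replicate numbers. Whether a replicate stands for its own mouse is not said in the labels, so p-values measure only the spread between these samples, which may be technical. The labels give no batch. They name RNA extraction from the sorted cells and then a droplet single-cell chemistry (Chromium) for the libraries, but each deposited table holds 1 value per gene with no cell barcodes, so the tables were analysed as bulk RNA, and reads limited to transcript ends were not tested for.

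Reads were trimmed with Trim Galore 0.6.7, mapped to GRCm38 by STAR 2.7.10a and turned into gene estimates by RSEM 1.3.1, per the submitters' processing notes. The deposited tables give RSEM expected counts, which need not be whole, and TPM, per the file headers. RSEM divides reads shared by similar genes by estimate. The sources used here give no strand setting. Symbols and coordinates came from GENCODE M21 (GRCm38), which matched 45143 of 45706 identifiers.

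Expected counts were rounded. edgeR 4.0.16 (R 4.3.3) was run by quasi-likelihood on the 16 libraries, with a mean for each group, after its expression filter (15186 genes, 99.928% of counts) and scaling by the trimmed mean of M values. The common biological coefficient of variation came to 0.306, 12 residual degrees of freedom were left, and a gene was called when its p, adjusted by Benjamini-Hochberg over all genes tested, fell under 0.05. Intervals are 95% intervals of the fit. DESeq2 1.42.0 and limma 3.58.1 (log2(TPM + 1), and voom with library weights) were alternatives, and the test was checked on simulated counts. There it called 8% of 50 genes changed 1.5-fold and 40% of 50 changed 2-fold, so most of those genes were not called. At 4-fold and 8-fold it called 84% and 92%, with 8 false calls among 14961 genes. Whether these rates hold for the libraries themselves was not tested. The deposited TPM were used to order levels between genes: relative to CPM, the median gene's TPM shifted by 0.15 in naive LPS replicate 1 and by -0.34 in naive LPS replicate 4 on the log2 scale.

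Since fewer than 12 genes were called, the named genes were the 12 in each direction with the lowest p, provided that the mean log2 CPM reached 2 and the 2 groups did not overlap. Not eligible were gene models, lymphocyte receptor segments, pseudogenes, Xist and Y-linked genes. Up to 4 members of each list by lowest p and 28 genes fixed by name were added (some named genes are not reported here), and H2-T24, 1500009L16Rik and B2m were chosen after their values were seen, as were lists' members that the text uses as examples outside this rule. The 34 pathway lists, 8 lists of markers and the members were chosen with earlier results of these data known. Promoter windows came from RefSeq (GRCm38.p6).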

Additional observations from a re-analysis of the deposited data

Results flagged for a closer look

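Each result was examined in the LPS groups for a library that lies far from the other 3 of its group. The PBS groups were not examined in this way. Of 172 groups of 4 values, 26 held such a library. Chance gives about 1 in 20 for independent values that were not selected. These genes share libraries and some were chosen after their values were seen, so that rate is no measure here. Of the 26, 19 pointed to experienced LPS replicate 4. In that library the mitochondrial share of counts was 7.3% against 1.91% to 2.50% in experienced replicates 1 to 3, and the ribosomal protein share 4.83% against 6.48% to 6.68%. It had the highest experienced value with 4762 CPM for B2m, 34.4 CPM for H2-T24, 573 CPM for Kit, 1190 CPM for Mki67, 7.29 CPM for Procr and 38.1 CPM for Zbp1. It had the lowest experienced value with 19.8 CPM for Cdkn1a, 27.9 CPM for Cebpa, 48.3 CPM for Csf3r, 12.5 CPM for Fcer1a, 942 CPM for Gapdh, 6.46 CPM for Kcnk6, 352 CPM for Ldha, 33.7 CPM for Myd88, 60.9 CPM for Nfkbia, 148 CPM for Pgam1 and 2.89 CPM for Tnf. The part of the library's depth and mitochondrial share in their values was not tested.

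Experienced LPS replicate 2 lay apart from its group for Gata1 (63.2 CPM, below the other 3). Naive LPS replicate 1 lay apart from its group for Ifit1 (39.2 CPM, above the other 3). Naive LPS replicate 2 lay apart from its group for Ccnyl1 (12.3 CPM, above the other 3) and Ifitm3 (317 CPM, below the other 3). Naive LPS replicate 3 lay apart from its group for Gapdh (1468 CPM, above the other 3) and Procr (3.62 CPM, below the other 3). Naive LPS replicate 4 lay apart from its group for Hmox1 (30.1 CPM, above the other 3).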

How the results depend on the processing

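edgeR called 0 genes after LPS, after PBS and for the interaction under each scaling, without the low-count filter, with the replicate block and without each replicate in turn. DESeq2 called 2, 2 and 1 and voom with library weights 2, 2 and 0, while limma on log2(TPM + 1) called 1 after PBS. After PBS these were Pet117 and Gm28539 (DESeq2), H2-Aa and H2-Ab1 (voom) and Rbakdn (limma), and for the interaction 1500009L16Rik (DESeq2). At an unadjusted p under 0.05 after LPS, where the edgeR counts were 166 higher and 325 lower, the counts were 337 and 518 without the low-count filter, 79 and 137 on the 8 LPS libraries alone, 860 and 1127 without experienced LPS replicate 4 and naive LPS replicate 2, and 982 and 1158 with voom, and limma on log2(TPM + 1) gave 206 lower. Leaving out each replicate gave 114 to 832 higher (naive LPS replicate 2: 362, naive LPS replicate 3: 275, experienced LPS replicate 4: 832) and 236 to 1165 lower (540, 529 and 1165). The cause was not tested, beyond the different numbers of genes and samples.

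The correlations of same-numbered LPS libraries were -0.137, -0.132, 0.299 and -0.208. Naive replicate 3 gave 0.317, 0.202 and 0.299 with experienced replicates 1 to 3, so these values cannot decide whether the numbers pair the samples. Total expected counts were 19623586, 8538322, 21620698 and 11530570 in naive LPS replicates 1 to 4. In experienced LPS replicates 1 to 4 they were 20105619, 9028785, 22264672 and 7718857. Whether same-numbered libraries were handled together was not tested. With the number as a block 151 genes were higher and 284 lower, and on the 8 LPS libraries with the block, a setting chosen after seeing the data, 50 and 110. Zbp1 gained a call with voom (-1.33, adjusted p = 0.0324), as did H2-T24 (-1.03, adjusted p = 0.0324). Voom gave experienced LPS replicate 4 a weight of 0.16.

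Differences changed sign with upper-quartile factors Ccl5 -0.01; with the replicate block Ccl5 -0.08; without both outlying libraries Ccl5 -0.10, Ifitm3 -0.07, Meis1 -0.02, Mki67 0.05, Nfkbia 0.03, Tlr4 0.24. They did so with limma on TPM Cxcl10 0.35, Nfkbia 0.04, Procr 0.15; with voom Ifitm3 -0.01, Meis1 -0.03, Nfkbia 0.16, Tlr4 0.11; on the 8 LPS libraries with the block Nfkbia 0.00. Without single replicates sign changes lay within these ranges: B2m -0.81 to 0.10, Ccl5 -0.32 to 0.26, Hlf -0.18 to 0.32, Ifitm3 -0.10 to 0.09, Mecom -0.09 to 0.20, Meis1 -0.16 to 0.17, Mki67 -0.33 to 0.19, Nfkbia -0.14 to 0.24, Tlr4 -0.47 to 0.03. No direction is read for a gene whose range spans 0. Without single LPS replicates the experienced minus naive difference ran from -3043874 to 1804731 expected counts, -960 to 358 detected genes, -1.18 to 0.613 points of mitochondrial share, -0.42 to 0.36 points of ribosomal protein share and -0.866 to 1.05 points of the share of the 100 largest genes. Without experienced LPS replicate 4 these were 1804731, 358, -1.18, 0.36 and -0.866. The median of mitochondrially encoded genes ran from -0.99 to 0.61, that of macrophage markers from -1.12 to 0.21, and that of interferon-induced genes from -0.73 to -0.31.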

Other observations

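Markers of other blood cells gave few counts after LPS, with some exceptions. Medians of the log2 difference were -0.01 for B and plasma cell (9 tested of 11), -0.50 for T and NK cell (5 of 11), -0.63 for macrophage (9 of 10), 1.06 for neutrophil (6 of 10), 0.37 for dendritic cell (7 of 8), 0.06 for endothelial (5 of 8) and -0.05 for stromal markers (3 of 8). The HSPC sort and identity list had a median of -0.06. With few counts behind most of these markers a median has little weight.

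Zbtb46, a transcription factor of classical dendritic cells and their precursors that erythroid progenitors also express, read 23.6, 12.3, 29.96 and 25.6 CPM in naive and 6.91, 3.05, 8.86 and 28.2 CPM in experienced replicates after LPS, so that experienced replicates 1 to 3 lay below all naive values and replicate 4 did not (-0.99 ± 0.77, -1.84 ± 0.78 without it). At rest it read 4.69, 5.66, 5.38 and 1.62 CPM and 2.82, 1.67, 11.5 and 37.2 CPM. Its interaction was -2.58 ± 1.09 (edgeR, unadjusted p = 0.0311). Klrb1c, which encodes the natural killer cell receptor NK1.1, was below all naive values in the 4 experienced libraries, at 1.94, 2.71, 1.65 and 1.84 CPM and 1.27, 1.02, 0.518 and 0.275 CPM (-1.34 ± 0.52, unadjusted p = 0.0185). Vpreb1, a surrogate light chain of B cell precursors, was above all naive values in the 4 experienced libraries, at 0.157, 0, 0.235 and 0.263 CPM and 0.508, 0.452, 0.707 and 0.962 CPM (1.83 ± 0.60, unadjusted p = 0.00698), where the naive values stand on few counts. Klrb1c had 161 and Vpreb1 47 expected counts over the 8 LPS libraries. Their lists were mixed after LPS: 2 members higher and 3 lower for T and NK cell, 4 and 5 for B and plasma cell. The dendritic cell list, which holds Zbtb46, had 4 higher and 3 lower. Summed T and NK cell markers were 98.9, 82.6, 97 and 106 CPM in naive and 124, 120, 116 and 60.4 CPM in experienced replicates. Nkg7 makes up most of these sums, with 11337 expected counts over the 8 LPS libraries. Lck had 613, Klrb1c 161, Ncr1 61 and Cd4 23.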
